A study of Homo sapiens with 8 samples.

Results

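The 10 genes described here are those of the cadherin switch and of mesenchymal cells: the cadherins CDH1, CDH2 and CDH3, the mesenchymal structural and matrix genes VIM, FN1, TNC and SPARC, and the transcription factors SNAI2, ZEB1 and TWIST1. Their probes were found by gene name in the annotation of the arrays. Of the 10, 9 stand there under their own symbol, and ZEB1 stands under its older name TCF8 and was matched by its RefSeq accession. Together they have 15 of the 41000 probes on the array. A gene was tested where a probe was above background on at least 2 arrays, which held for 9 of the 10 and for 13237 genes in all. ZEB1 was above background on none of the 8 arrays.

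Epithelial cells adhere to each other through E-cadherin, the product of CDH1, which binds beta-catenin inside the cell. In an epithelial-to-mesenchymal transition, transcription factors of the SNAI, ZEB and TWIST families repress CDH1, N-cadherin (CDH2) replaces it, and cells make vimentin filaments and matrix proteins such as fibronectin. Squamous carcinomas of the head and neck often show part of this programme at their invasive edge, and basal keratinocytes express P-cadherin (CDH3) and SNAI2 without losing E-cadherin.

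The cells were CAL-27, an established human line from a squamous carcinoma of the tongue, one of the head and neck cancers. All groups were grown in medium with 10% serum, starved of serum for 24 h and harvested 24 h later, and total RNA was hybridised to 8 single-colour arrays. The control group had 3 arrays, the enzastaurin group (10 µM for 24 h) had 3, and the group called Go, whose dose the labels do not give, had 2; what the controls received in those 24 h is not stated in the labels. Enzastaurin inhibits protein kinase C, and the series title names both compounds as inhibitors of that kinase. The labels do not say whether replicates came from separate cultures, so p-values measure the spread between these samples, which may be technical, and all results concern a single cell line.

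The 8 arrays had 45220 spots each, and 52.1% to 57.3% of probes were above background on an array. The mean spot position separated the arrays into 2 slides: the 3 control arrays and Go 1 lay at 10930.1 to 10951 µm, and the 3 enzastaurin arrays and Go 2 at 10897.1 to 10904.5 µm. Slide 1 therefore held every control and slide 2 every enzastaurin array, and the groups can be told apart from the slides only through the 2 Go arrays. Each comparison was therefore also fitted with the slide as a block, which equals the comparison within a slide: Go 1 against the controls, Go 2 against the enzastaurin arrays, and enzastaurin against control as the sum of these steps. Each step sets a single Go array against 3 others, so the fit takes the spread from the other groups and assumes that a lone Go array varies as they do. On the first principal component of all genes, with 78.1% of the variance, the controls lay at -52.6 to -22.2, Go 1 at 0.6, Go 2 at 24.6 and the enzastaurin arrays at 29.4 to 32.9. All 12 keratinocyte markers were above background on all 8 arrays. Of 10 fibroblast markers 2 (ACTA2 and THY1) were above background on all arrays and FAP, PDGFRA and PDGFRB on none. Of 7 endothelial markers only VWF was above background on all arrays, and of 8 leukocyte markers 5 were, with PTPRC, the general leukocyte marker, on none.

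The promoters of the 4 matrix and filament genes are given first, because VIM, FN1 and TNC were all higher with enzastaurin while SPARC was not. They are the 250 bases before the RefSeq start on the gene's strand (GRCh38.p14), with motif matches in capitals: VIM at chr10:17227991-17228240 (plus strand), FN1 at chr2:215436069-215436318, TNC at chr9:115118158-115118407 and SPARC at chr5:151686916-151687165 (all minus strand).
VIM: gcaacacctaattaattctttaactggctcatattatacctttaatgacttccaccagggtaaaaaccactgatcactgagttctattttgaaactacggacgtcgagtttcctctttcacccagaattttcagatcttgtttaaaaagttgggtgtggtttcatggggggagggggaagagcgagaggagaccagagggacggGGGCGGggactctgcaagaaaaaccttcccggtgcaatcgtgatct
FN1: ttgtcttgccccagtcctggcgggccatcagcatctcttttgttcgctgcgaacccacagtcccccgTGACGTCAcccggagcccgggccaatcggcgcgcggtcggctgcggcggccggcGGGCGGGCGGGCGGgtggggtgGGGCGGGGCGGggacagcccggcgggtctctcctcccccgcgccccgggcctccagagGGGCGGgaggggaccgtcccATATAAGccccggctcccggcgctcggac
TNC: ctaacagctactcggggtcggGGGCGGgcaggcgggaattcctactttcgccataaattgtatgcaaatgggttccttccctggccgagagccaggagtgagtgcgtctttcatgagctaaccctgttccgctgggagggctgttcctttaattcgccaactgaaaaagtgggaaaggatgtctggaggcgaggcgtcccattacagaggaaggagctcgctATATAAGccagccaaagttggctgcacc
SPARC: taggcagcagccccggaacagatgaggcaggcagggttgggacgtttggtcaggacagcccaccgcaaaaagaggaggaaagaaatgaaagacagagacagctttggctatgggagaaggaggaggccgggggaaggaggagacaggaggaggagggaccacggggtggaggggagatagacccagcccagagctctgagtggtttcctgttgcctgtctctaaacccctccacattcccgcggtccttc
The motifs were searched on both strands. The E-box CAGGTG, which SNAI and ZEB proteins bind, occurs in 17.5% of 35116 promoters of this length and in none of these 4 windows. Of the other members, ZEB1 holds it in some of its 7 promoters and CDH2 in neither of its 2. CDH1, CDH3, SNAI2 and TWIST1 have no promoter among those searched, so it is not known here whether theirs hold it. The other motifs were chosen after the data were seen. The FN1 window holds a cyclic AMP response element (TGACGTCA, in 1.65% of promoters) at -183 to -176, a TATA-like ATATAAG (1.73%) at -29 to -23, and 6 GC boxes (GGGCGG, 42.6%), some of which overlap. The TNC window holds the same TATA-like run at -28 to -22 and 1 GC box, the VIM window holds 1 GC box, and the SPARC window holds none of the motifs searched. The AP-1 run TGANTCA (6.57%) is in none of the 4. GC content was 76.4% for FN1, 59.2% for SPARC, 54.8% for TNC and 46% for VIM. A match is a run of letters, not a shown binding site.

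With enzastaurin, CDH1 and CDH3 were higher than in the controls, and CDH2, at a low signal in all groups, did not pass. CDH1 had a log2 normalised intensity of 11.91, 11.76 and 11.86 on the control arrays, 12.11, 12.05 and 12.15 with enzastaurin, and 11.92 and 11.86 with Go. Every enzastaurin array was above every control array, and the Go arrays lay at or near the control range. The difference between enzastaurin and control was 0.26 (SE 0.0723, adjusted p = 0.0149, limma over all 13237 genes), and 0.33 with the slide as a block (adjusted p = 0.177). This call was lost without control 2 (adjusted p = 0.0656), enzastaurin 1 (0.0536) or enzastaurin 3 (0.0574), and with the authors' value table in place of the scanner intensities (0.18, adjusted p = 0.112). The CDH1 probe was printed 10 times on each array, and the log2 SD between these single spots was 0.154 to 0.395 on an array. The value of an array is the mean of its 10 spots, and the SD between arrays was 0.0766 in controls and 0.052 with enzastaurin. In bulk RNA, a change in the number of cells that express a gene and a change in the RNA per cell cannot be told apart.

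CDH3, whose product P-cadherin is the classical cadherin of basal keratinocytes, was at 12.22, 12.54 and 12.87 on the control arrays, 13.03, 12.95 and 13.14 with enzastaurin, and 12.99 and 12.83 with Go. The controls spread over a wider range than either treated group, and all enzastaurin arrays were above them. The difference between enzastaurin and control was 0.50 (SE 0.15, adjusted p = 0.022, limma) and 0.65 with the slide as a block (0.209). The call was lost without control 1 (0.0508), control 2 (0.0613), enzastaurin 1 (0.0586) or enzastaurin 3 (0.0766). CDH2, which encodes N-cadherin, was at 7.49, 7.46 and 7.56 in the controls, 7.37, 7.55 and 7.53 with enzastaurin, and 7.56 and 7.47 with Go. The groups overlapped, and the enzastaurin difference was -0.02 with a 95% interval of -0.20 to 0.15 (adjusted p = 0.828, limma). The CDH2 signal was above background on all 8 arrays at 85 to 168 units of the authors' background-subtracted signal.

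**Figure D1:**
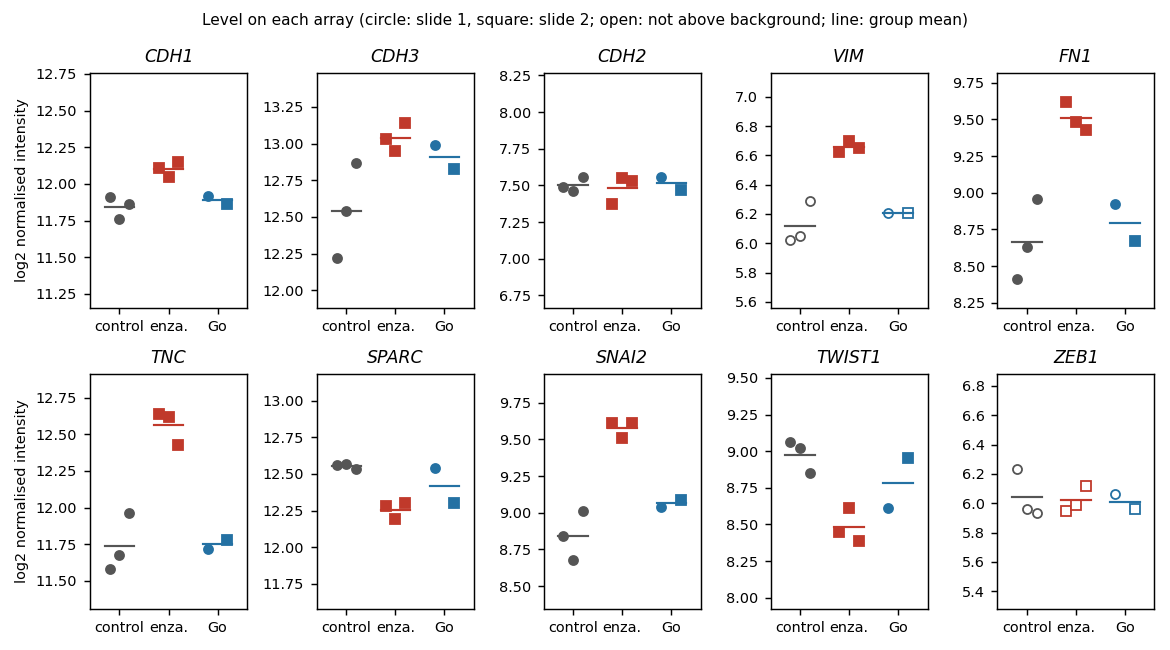
Log2 normalised intensity of each of the 10 genes on each array, by group, for the probe that stands for the gene; each panel spans the same range of 1.6 log2 units. Circles are arrays of slide 1 and squares of slide 2, open symbols are not above background, and lines are group means; the enzastaurin arrays lie above all control arrays for CDH1, CDH3, VIM, FN1, TNC and SNAI2 and below them for SPARC and TWIST1.

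Over the 8 members above background in both groups, 7 passed in enzastaurin against control, 5 higher and 2 lower, with a median difference of 0.38. VIM, the ninth gene tested, is left out of this count because it was above background with enzastaurin only. In that comparison 55.1% of all genes tested passed (18.6% higher and 36.5% lower), and the median over all genes was -0.13. For 7 of the 8 members, and for 69.0% of all genes, enzastaurin and control arrays did not overlap. With the slide as a block only TWIST1 passed, against 3.88% of all genes. Most members passed, in a comparison where most genes did, and the list itself was not tested. In the slide-block fit CDH1, CDH3, VIM, FN1, TNC and SNAI2 differed by 0.33, 0.65, 0.53, 1.10, 0.76 and 0.69, with wider intervals, and SPARC by -0.05. The summed signal of the 8 leukocyte markers was 876 to 1160 in controls, 2300 to 2680 with enzastaurin and 1370 to 1470 with Go. HLA-DRA (432 to 1681 units over the arrays) and CSF1R (90 to 519) made up most of it, both higher with enzastaurin (1.11 and 1.15), while CD3E was lower (-0.64, adjusted p = 0.0013, limma), CD14 and CD68 did not pass and PTPRC had 0.5 to 5 units. The 12 keratinocyte markers summed to 103000 to 125000, 143000 to 175000 and 114000 to 123000 in the same order, and the 7 endothelial markers to 170 to 190, 116 to 134 and 85.5 to 211. All these sums are of unscaled signal, and the enzastaurin arrays were brighter: the 75th percentile of foreground was 460 to 554, against 318 to 424 in controls. On the normalised scale 2 of the 12 keratinocyte markers were higher and 2 lower with enzastaurin (median -0.17). With Go 0 were higher and 5 lower (median -0.38), where 11.9% of all genes were higher and 19.8% lower. The part of these markers in the members' differences was not tested.

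Among the genes for filaments and matrix, TNC and FN1 had the largest differences with enzastaurin. TNC encodes tenascin-C, a matrix glycoprotein of invasive tumour edges and healing wounds. It was at 11.58, 11.68 and 11.96 on the control arrays, 12.64, 12.62 and 12.43 with enzastaurin, and 11.72 and 11.78 with Go. The enzastaurin arrays stood clear of all others, and both Go arrays lay within the control range. In the authors' signal TNC was 2940 ± 831 (SD, n = 3) in controls, 7610 ± 1280 (n = 3) with enzastaurin and 3570 ± 235 (n = 2) with Go. The log2 difference between enzastaurin and control was 0.83 (SE 0.109, adjusted p = 0.000733, limma), and 0.76 with the slide as a block (adjusted p = 0.0881).

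FN1, which encodes fibronectin, was at 8.41, 8.63 and 8.96 on the control arrays, 9.62, 9.48 and 9.43 with enzastaurin, and 8.92 and 8.67 with Go. The enzastaurin arrays were again above all others. The difference from control was 0.85 (SE 0.14, adjusted p = 0.0017, limma), and 1.10 with the slide as a block (adjusted p = 0.0666). This probe has 10 spots per array, with a log2 SD between them of 0.259 to 0.404. A second FN1 probe differed by 0.23 (SE 0.201, adjusted p = 0.352 in limma over all probes), with Go 2 at 7.12 against 7.94 to 8.31 on the other arrays, and by 1.14 with the slide as a block (adjusted p = 0.0175). The third FN1 probe was not above background on any array. The 2 measured FN1 probes thus gave the same sign but not the same size or call.

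VIM, which encodes the intermediate filament of mesenchymal cells, was above background only on the 3 enzastaurin arrays. There it was at 6.62, 6.70 and 6.65, against 6.02, 6.05 and 6.29 on the control arrays and 6.21 and 6.21 with Go. In the authors' signal these were 38 to 53 units with enzastaurin, 2 to 8 in controls and 5 to 9 with Go, so VIM sat close to the detection limit. Since the controls were not above background, the size of the difference is uncertain. Set against a floor on the normalised scale, VIM was 1.31-fold higher with enzastaurin. This value sets the enzastaurin mean against the control mean with each control array raised to its lowest probe above background. A probe not above background can lie over that floor, as VIM did on control 3 (6.29 against 6.23), so the value is not a strict bound. The measured log2 difference was 0.53, also 0.53 with the slide as a block, and 0.19 when arrays were scaled to their 75th percentile. VIM met the filter on dim probes only through the enzastaurin arrays and so had to differ, and its p-value is not given. The second VIM probe was likewise above background only with enzastaurin, 1.26-fold higher against the same floor (log2 difference 0.53).

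SPARC, whose product binds collagen in the matrix, differed the other way on the normalised scale. It was at 12.56, 12.57 and 12.53 on the control arrays, 12.28, 12.19 and 12.30 with enzastaurin, and 12.54 and 12.30 with Go. The 3 enzastaurin arrays and Go 2, all of slide 2, were the lowest 4, with Go 2 beside enzastaurin 3. The difference between enzastaurin and control was -0.29 (SE 0.0809, adjusted p = 0.0156, limma), and -0.05 with the slide as a block (adjusted p = 0.812). SPARC turned to 0.06 when arrays were scaled to their median, and its call was also lost when they were scaled to the 75th percentile (-0.20, adjusted p = 0.0547) and without control 2 (0.0542) or enzastaurin 2 (0.0653). In the authors' unscaled signal it was 4950 ± 620 (SD, n = 3) in controls and 5890 ± 405 (n = 3) with enzastaurin. Its lower value is therefore relative to the other genes of the array.

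Of the transcription factors, SNAI2 was higher and TWIST1 lower with enzastaurin. SNAI2 encodes SLUG, a zinc-finger repressor of CDH1 that basal keratinocytes also express. It was at 8.84, 8.68 and 9.01 on the control arrays, 9.61, 9.51 and 9.61 with enzastaurin, and 9.04 and 9.09 with Go. The enzastaurin arrays lay within a narrow band above all others, and the Go arrays just above the controls. The difference from control was 0.73 (SE 0.0924, adjusted p = 0.000634, limma), and 0.69 with the slide as a block (adjusted p = 0.0774). SNAI2 and CDH1, a repressor and its known target, were thus both higher on the enzastaurin arrays. A second SNAI2 probe was not above background on any array.

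TWIST1, a basic helix-loop-helix factor, was at 9.06, 9.02 and 8.85 on the control arrays, 8.45, 8.61 and 8.39 with enzastaurin, and 8.61 and 8.95 with Go. The enzastaurin arrays did not reach the control range; Go 1 equalled enzastaurin 2 and Go 2 lay among the controls. The difference was -0.49 (SE 0.111, adjusted p = 0.00655, limma) and -0.83 with the slide as a block (adjusted p = 0.047), and it missed the threshold when arrays were scaled to their median (-0.24, adjusted p = 0.106). The authors' unscaled signal was 378 ± 41.9 (SD, n = 3) in controls and 365 ± 73.7 (n = 3) with enzastaurin. The second TWIST1 probe was below background on all arrays. ZEB1 had 0.5 to 9 units of signal on all 8 arrays.

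A ratio of the authors' signals within an array does not depend on a single scale factor per array. Differences between arrays that vary with intensity can still move it. Relative to CDH1 on the same array, TNC was 0.836 ± 0.0796 (SD, n = 3) in controls, 1.34 ± 0.139 (n = 3) with enzastaurin and 0.826 ± 0.0955 (n = 2) with Go. SNAI2 over CDH1 was 0.104 ± 0.011, 0.153 ± 0.000577 and 0.118 ± 0.00354 in the same order. Both ratios were higher on every enzastaurin array than on any other array, so these genes changed more than CDH1 did. FN1 over CDH1 was 0.0746 to 0.11 in controls, 0.118 to 0.129 with enzastaurin and 0.0699 to 0.0877 with Go. SPARC over CDH1 was 1.31 to 1.51, 1.02 to 1.07 and 1.31 to 1.36, and TWIST1 over CDH1 was 0.0962 to 0.12, 0.0591 to 0.0732 and 0.0804 to 0.105, both lowest with enzastaurin. CDH2 over CDH1 was 0.0291 to 0.0312 in controls, 0.0214 to 0.0274 with enzastaurin and 0.0234 to 0.0282 with Go. In the authors' signal this ratio of N-cadherin to E-cadherin was below every control array on all 5 treated arrays. On the normalised scale CDH2 differed from control by 0.01 and CDH1 by 0.05 with Go, and neither passed, so a lower ratio with Go is not shown. These ratios depend on the probes, so only their differences between arrays can be read. They were added after the data were seen and were not tested.

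**Figure D2:**
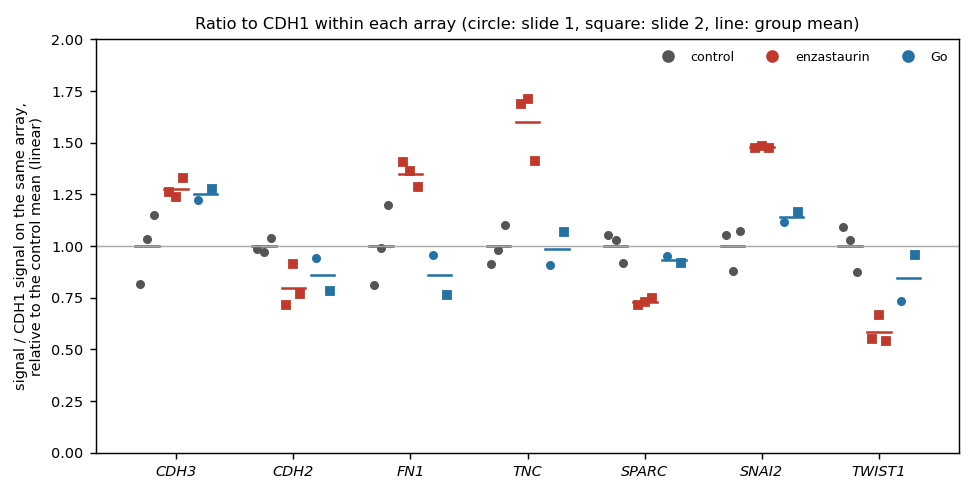
Authors' background-subtracted signal of 7 members divided by that of CDH1 on the same array, relative to the mean of the control arrays (linear axis from 0). Circles are arrays of slide 1, squares of slide 2, and lines group means; TNC and SNAI2 are highest and SPARC and TWIST1 lowest on the 3 enzastaurin arrays.

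None of the 8 members above background passed in Go against control, where 31.7% of all genes tested did (11.9% higher and 19.8% lower). With the slide as a block the count was also 0 of 8, against 6.06% of all genes. Go and control arrays were free of overlap for 1 member, SNAI2, and for 57.5% of all genes. The median difference over the members was 0.03. TNC differed from control by 0.01 with a 95% interval of -0.27 to 0.29, CDH1 by 0.05 (-0.13 to 0.23) and FN1 by 0.13 (-0.23 to 0.49), while the second FN1 probe differed by -0.41 (-0.93 to 0.11). The largest differences were those of CDH3 (0.37, -0.01 to 0.75, adjusted p = 0.118) and SNAI2 (0.22, -0.01 to 0.46, adjusted p = 0.124). Both passed without control 3, the control with the highest level of each. VIM was not above background in either group. With 2 Go arrays and an unstated dose, a member that did not pass is not shown to be unaffected.

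Set directly against each other, Go and enzastaurin differed in 3 of the 8 members above background in both groups, all lower with Go: TNC, FN1 and SNAI2. In this comparison 7.71% of all genes tested passed (4.58% higher and 3.13% lower with Go), and 6.86% did with the slide as a block. The arrays did not overlap for 5 of 8 members and for 48.0% of all genes, and the median over members was -0.17 against 0.03 over all genes. TNC was lower by the most, -0.82 (SE 0.122, adjusted p = 0.00816, limma), and passed under all alternative settings run, with adjusted p from 0.00314 to 0.0473. Within slide 2, where Go 2 lay beside the 3 enzastaurin arrays, its difference was -0.79 (adjusted p = 0.0294), a value that rests on 1 Go array and is the same fit as leaving out Go 1. FN1 differed by -0.72 (SE 0.157, adjusted p = 0.032) and -0.84 within slide 2 (adjusted p = 0.0434), and its second probe differed by -0.64 (adjusted p = 0.148 over all probes) and -1.10 within slide 2 (adjusted p = 0.0105). SNAI2 differed by -0.51 (SE 0.103, adjusted p = 0.0247) and -0.49 within slide 2 (0.0671). VIM was 1.31-fold lower with Go when the Go arrays were raised to the same floor. Its measured log2 difference of -0.45 became -0.29 when arrays were scaled to their 75th percentile. VIM is not counted because it was above background with enzastaurin only.

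The enzastaurin and Go comparisons above share the 3 control arrays or the enzastaurin arrays, so their values are set side by side and not counted as separate evidence. Leaving out any 1 of the 3 enzastaurin arrays left TNC as the one of these 3 past the threshold in Go against enzastaurin. The FN1 call was also lost without control 2 (0.0651) or Go 2 (0.0843). The other 5 members did not pass. CDH1 differed by -0.21 (SE 0.0808, adjusted p = 0.148, limma) and TWIST1 by 0.29 (adjusted p = 0.185), while CDH2 (0.03), CDH3 (-0.13) and SPARC (0.16) had adjusted p from 0.29 to 0.84.

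**Figure D3:**
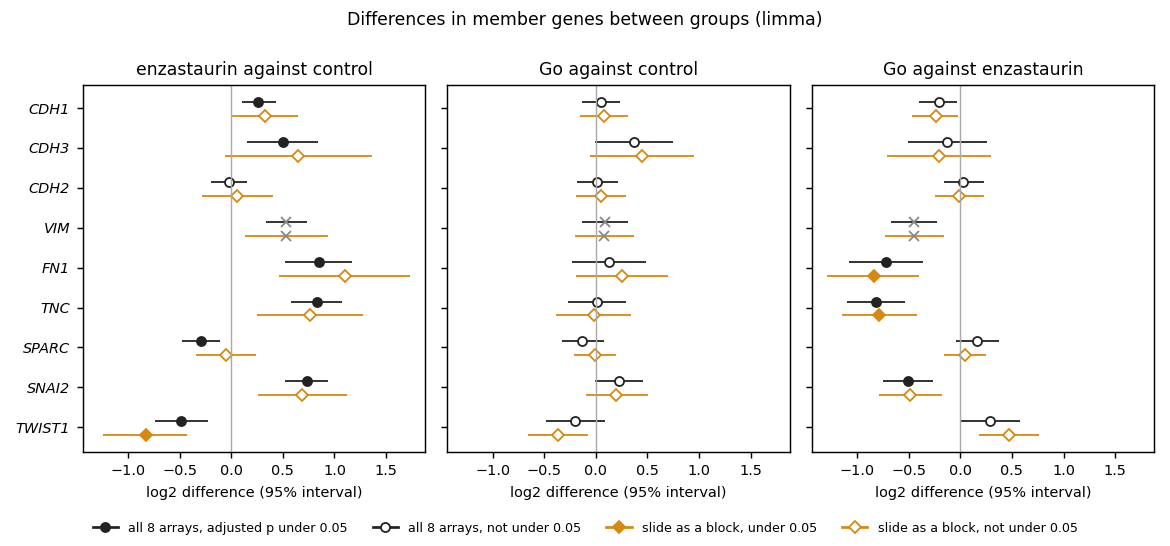
Log2 differences of the 9 tested genes with 95% intervals in the 3 comparisons (first group minus second), from all 8 arrays (circles) and with the slide as a block (diamonds); filled symbols have an adjusted p under 0.05. VIM was above background with enzastaurin only, and is drawn as grey crosses with no call. TNC and FN1 are lower with Go than with enzastaurin in both fits, and the intervals of the first comparison widen with the slide as a block.

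FN1, TNC and SNAI2 followed each other over the 8 arrays, with Pearson r from 0.93 to 0.97 between any pair of them. CDH1 followed these genes too, with r from 0.85 to 0.94, and so did CDH3, from 0.69 to 0.81. SPARC and TWIST1 ran against FN1, TNC and SNAI2, from -0.91 to -0.74, and CDH2 had r from -0.18 to -0.11 with them. VIM was not above background on the control and Go arrays. It met the filter on dim probes only through the enzastaurin arrays, which fixes much of its pattern, so its r values are not given. The r values given describe 8 arrays that share the same 3 groups and 2 slides, and carry no test. Of the genes tested, those with the pattern most like TNC were ZBED2 (r = 0.988), FAM13B (0.987) and ACTA2 (0.986). For FN1 they were EMC3 (0.99), GULP1 (0.988) and TMEM106B (0.984), and for SNAI2 ARHGEF28 (0.99), ARHGEF12 (0.987) and PIK3C2A (0.986). CDH1 was most like PRKD3 (0.994), a diacylglycerol-regulated kinase, then PDS5A (0.981) and C6orf58 (0.98), and CDH3 most like UBE2D3 (0.99), OSBPL3 (0.988) and STIL (0.986). SPARC was most like RNF149 (0.991), CLIP2 (0.991) and CASC3 (0.989), and TWIST1 most like NKTR (0.985), GALK1 (0.985) and NHP2 (0.984). Many genes followed these patterns: 238 exceeded r = 0.9 with TNC and 1132 with SPARC.

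Among adherens junction genes other than cadherins, nectins included, 6 of 11 tested genes passed with enzastaurin, 4 higher and 2 lower (median 0.13). With Go 2 of 11 passed, both higher (median 0.01). CTNNB1, which encodes beta-catenin, was at 9.04, 9.25 and 9.39 on the control arrays, 10.09, 10.16 and 10.14 with enzastaurin, and 9.93 and 10.35 with Go. All treated arrays were above the controls, by 0.90 with enzastaurin (adjusted p = 0.00087, limma; 0.152 with the slide as a block) and 0.91 with Go (adjusted p = 0.00699; 0.0276 with the slide as a block). CTNNAL1, an alpha-catenin-like gene, rose with both compounds (0.80 and 0.73), and JUP, which encodes plakoglobin, fell with enzastaurin by 0.62. With the slide as a block none of the 11 passed with enzastaurin and 1, CTNNB1, with Go. Of 9 desmosome genes, 2 were higher and 2 lower with enzastaurin (DSC3 0.81, DSG2 0.33, PKP2 -0.41 and PERP -0.27, which turned to 0.09 under median scaling), and 2 were lower with Go (DSG3 -0.42 and PKP1 -0.39). None of the 9 passed in either comparison in the slide-block fit. Of 10 other cadherins 4 were tested. CDH24 was lower with enzastaurin (-1.04) and with Go (-0.64), and CDH13, which encodes the GPI-anchored T-cadherin, was lower with Go (-0.58), and neither passed with the slide as a block. CDH11, the cadherin of mesenchymal cells, did not pass (adjusted p = 0.0801): control 2 stood at 11.22 against 7.65 and 7.30 on the other controls, while in the authors' signal the 3 were 141, 118 and 93.

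Other genes of epithelial identity moved both ways. With enzastaurin 3 of 26 tested were higher and 14 lower (median -0.32), beside 18.6% higher and 36.5% lower over all genes, and with Go 4 were higher and 2 lower (median -0.11), beside 11.9% and 19.8%. The same shares are the background of the other lists given here. EPCAM, an epithelial adhesion molecule, was at 11.27, 11.44 and 11.80 on the control arrays, 13.01, 13.00 and 13.14 with enzastaurin, and 12.41 and 12.79 with Go. It was higher in every treated array, by 1.55 with enzastaurin and 1.10 with Go. OCLN, which encodes the tight-junction protein occludin, was also higher with both (0.75 and 0.74), and TP63, the master factor of squamous basal cells, lower with both (-0.76 and -0.64). CLDN7, a claudin of tight junctions, was lower with enzastaurin (-0.89) and higher with Go than with enzastaurin (0.89). With the slide as a block none of the 26 passed with enzastaurin and 1 with Go, where 3.88% and 6.06% of all genes did.

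Of the other transcription factors of the transition, 10 of 16 were tested. With enzastaurin 2 were higher and 2 lower, and with Go 2 were higher and 1 lower. KLF8, counted as lower in both, met the filter on dim probes only through the control arrays and so had to differ. FOXC2, a forkhead factor that can drive mesenchymal traits, had the largest difference of the list. It was at 6.58, 6.59 and 6.77 on the control arrays, 9.49, 9.55 and 9.37 with enzastaurin, and 8.34 and 9.58 with Go. FOXC2 was above background on all 8 arrays and higher on every treated array. In the authors' signal the controls had only 30, 37 and 50 units, close to the detection limit, so the size of the difference is uncertain. The treated arrays had 315 to 961 units. The differences were 2.82 with enzastaurin (SE 0.258, adjusted p = 0.000299, limma) and 2.31 with Go (SE 0.288, adjusted p = 0.0046). With the slide as a block these were 1.59 (adjusted p = 0.00479) and 1.70 (0.000308). HMGA2 was higher with enzastaurin by 0.32, which turned to -0.18 when the probes of a gene were averaged, and SOX4 was higher with Go by 0.49, which turned to -0.18 in the same way. KLF8 was above background on the control arrays and on no treated array. SNAI1, SNAI3 and TWIST2 were not above background on any array, and ZEB2 differed by 0.11 with enzastaurin and 0.10 with Go without passing.

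**Figure D4:**
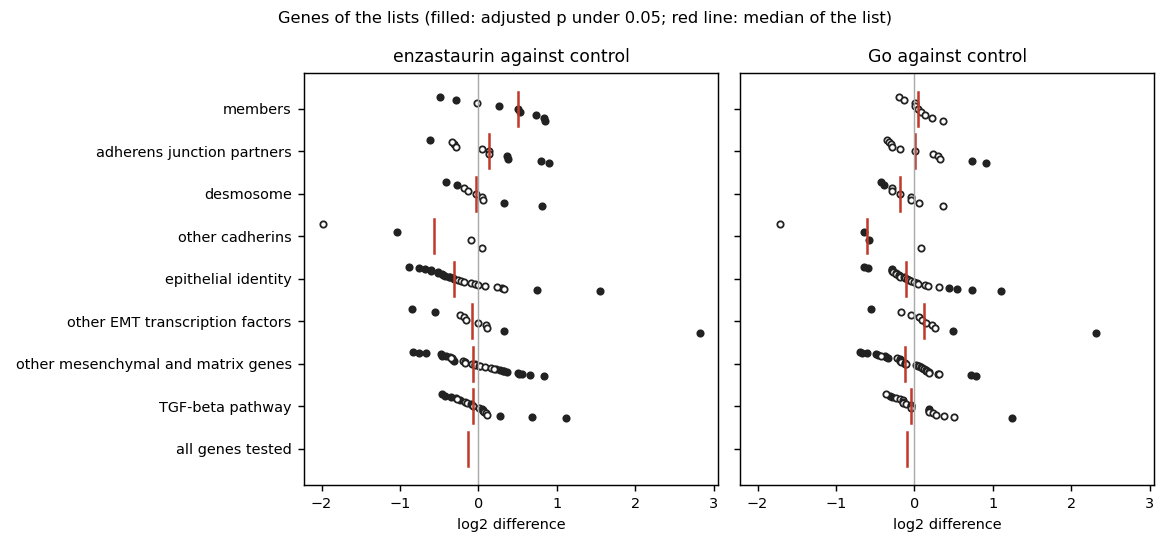
Log2 differences from control of the genes in each list, with enzastaurin (left) and Go (right); each point is a gene, filled where its adjusted p is under 0.05, and the red line is the median of the list or of all genes tested. The members, VIM included, have a median of 0.50 with enzastaurin and 0.05 with Go, and without VIM of 0.38 and 0.03. VIM and ITGB6 (left) and KLF8 (both panels) are filled, but met the filter on dim probes through a single group and so had to differ. FOXC2 is the point farthest right in both panels.

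Among 34 other mesenchymal and matrix genes tested, 10 were higher and 12 lower with enzastaurin (median -0.06), and 2 were higher and 8 lower with Go (median -0.11). ITGB6, among the 10, met the filter on dim probes only through enzastaurin arrays and so had to differ. S100A4, a calcium-binding protein of motile cells, was higher with enzastaurin (0.84) and Go (0.78). THBS1 and CCN1, matricellular genes, were lower with enzastaurin (-0.76 and -0.83) and higher with Go than with enzastaurin (0.87 and 0.66). COL5A1 and COL7A1, which encode collagens, were lower with Go than with enzastaurin (-0.66 and -0.61). Against control, COL5A1 differed by 0.32 with enzastaurin and -0.34 with Go, and COL7A1 by 0.01, without passing, and -0.60 (adjusted p = 0.00902, limma). None of the 34 passed with enzastaurin in the slide-block fit, while 2 did with Go and 6 in Go against enzastaurin. TGFBI, a target of TGF-beta signalling, was at 14.12, 14.00 and 14.09 on the control arrays, 14.33, 14.35 and 14.35 with enzastaurin, and 14.03 and 13.78 with Go. Its difference was 0.27 with enzastaurin (adjusted p = 0.0229), -0.17 with Go (0.184) and -0.44 between them (0.0285). Beside these, the summed unscaled signal of the 10 fibroblast markers was 250 to 816 in controls, 1450 to 2010 with enzastaurin and 1550 to 1560 with Go. Most of it came from THY1, at 80, 219 and 607 units in controls, 1122 to 1682 with enzastaurin and 1302 and 1386 with Go. Of the other fibroblast markers, ACTA2 and LUM were higher with enzastaurin (0.52 and 0.55, adjusted p = 0.00108 and 0.000999, limma) and differed by 0.04 and 0.16 with Go, without passing. Both were dim, at 33 to 115 and 24 to 98 units over the arrays, and LUM was above background on 2 of 3 controls. The sizes of these differences are therefore uncertain. DCN was lower with enzastaurin (-0.33), where it was not above background. None of these passed with the slide as a block in those comparisons. COL1A1 differed by 0.09 with enzastaurin and 0.19 with Go, without passing. COL1A2 and COL3A1 were above background on 1 array each, and FAP, PDGFRA and PDGFRB on none. The part of these markers in the members' differences was not tested.

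Of 21 TGF-beta pathway genes tested, 3 were higher and 5 lower with enzastaurin, and 1 was higher and 2 lower with Go. ID1, a helix-loop-helix inhibitor induced by BMP signals, was higher with both, at 11.37, 11.51 and 11.75 in controls, 12.66, 12.72 and 12.62 with enzastaurin, and 12.56 and 13.03 with Go. The differences were 1.12 (adjusted p = 0.000568, limma; 0.0972 with the slide as a block) and 1.25 (0.00425; 0.0095). FST and INHBA, which encode follistatin and an activin subunit, were lower with enzastaurin (-0.47 and -0.42). SMAD2 was lower with Go (-0.28), which turned to 0.05 when probes were averaged. None of the 21 passed with enzastaurin in the slide-block fit, and ID1 alone did with Go. TGFB1 and TGFB2 did not pass: TGFB1 differed by 0.06 and -0.18, and TGFB2 by -0.27 and 0.51, with enzastaurin and Go. TGFB1 was dim, at 27 to 39 units over the arrays.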

How the data were processed

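The labels give 3 control, 3 enzastaurin and 2 Go arrays, each of Cy3-labelled total RNA. Per the file headers, the deposited scanner tables are GenePix results: foreground and background intensity of each spot in 1 channel, not normalised, a signal-to-noise score, the percent of saturated pixels and, as other columns, spot positions. The authors' signal per probe, from the deposited value table, matches linear intensity less background, with a lowest value of 0.5. The annotation in the scanner tables ran end for end against the spots and was rotated: the rank correlation with the value table was then 0.9904 to 0.9937, against 0.007241 to 0.01301 as deposited. Slides were inferred from spot positions.

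Intensities were corrected with normexp (offset 50), control spots dropped, log2 values quantile normalised and spots of a probe averaged. A probe with a signal-to-noise score over 3 was above background, and at most 0.654% of negative controls were. The probe of highest mean stood for its gene; of 41000 probes, 28023 were named (23865 by accession, 2004 by current symbol, 961 by older symbol, 1193 by the file's name). limma 3.58.1 in R 4.3.3 fitted the 3 groups over 8 arrays (residual degrees of freedom 5, prior 3.52; 4 and 3.61 with the slide as a block), with Benjamini-Hochberg adjustment over 13237 genes, a threshold of 0.05 and intervals at 95%. Array number limits the precision.

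The members and gene lists were chosen with earlier results of these data known. Members were all named; of each other list up to 4 genes that passed with the largest change and no overlap were eligible, plus SNAI1, ZEB2, CTNNB1, TGFBI, TGFB1 and TGFB2, and for likeness 3 genes per member. CDH11, THY1, SNAI3 and TWIST2 were named after their values were seen. Some genes that the rule would name are not reported here. Alternatives were background correction, the value table, 2 scalings, no filter, mean of probes, slide and replicate number as blocks, and each array left out.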

Additional observations from a re-analysis of the deposited data

How the results depend on the processing

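The counts of members in this section include VIM, which had to differ because of the filter on dim probes. Without VIM, 7 of 8 members passed in enzastaurin against control and 3 of 8 in Go against enzastaurin. Over all 9 members tested, VIM included, 8 passed in enzastaurin against control. With the slide as a block 1 did, and 5 to 8 did when 1 array was left out, the fewest without control 2. In Go against control 0 passed; 1 (CDH3) did with the replicate block, and 0 to 2 with 1 array left out (2 without control 3). In Go against enzastaurin 4 passed; 2 did with the slide as a block, 1 (TNC) with the replicate block, where FN1 had an adjusted p of 0.084 and SNAI2 of 0.0589 in limma, and 1 to 4 with 1 array left out. The slide block is the same fit as leaving out Go 1 in this comparison, and Go 2 in Go against control. Same-numbered arrays correlated at -0.15 to 0.15, so the replicate numbers were not taken as pairs. Under median scaling the median of all genes in enzastaurin against control moved from -0.13 to 0.06, SPARC turned to 0.06 and PERP to 0.09. With probes averaged HMGA2 turned to -0.18 in enzastaurin against control, and in Go against control SMAD2 turned to 0.05 and SOX4 to -0.18. The cause of these changes was not tested. Over all genes tested, counts that moved beyond 1.5 times were 513 in place of 7288 with the slide as a block in enzastaurin against control; 802 (slide as a block), 2436 (median scaling), 2007 (without control 1), 894 (without control 2), 2763 (without enzastaurin 1) and 802 (without Go 2) in place of 4199 in Go against control; and 473 (replicate block), 483 (without control 2), 237, 212 and 358 (without enzastaurin 1, 2 or 3) and 1686 (without Go 2) in place of 1020 in Go against enzastaurin. VIM lies near the background of the arrays, so the size of its difference is uncertain.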
